A study of Rattus norvegicus with 6 samples.

Results

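The CIP/KIP and INK4 cell-cycle inhibitors were followed in STZ-treated NRK-52E cells, described by the study as proximal tubular epithelial. The 7 genes were taken by name, as the Cdkn1 and Cdkn2 families, with earlier results of these data known. Of these, 6 had a row among the 18930 genes of the count table, and Cdkn2b had no row under that symbol and was not analysed here. Every row of that table had a read in some sample, so a missing row can also mean a gene without reads. NRK-52E, an established epithelial line of the normal rat kidney with a genotype labelled WT, was treated with STZ at 10 mM (3 samples, STZ) or with vehicle (3 samples, Control) for 24 h, and the 2 groups differed in no other labelled way. STZ, a nitrosourea coupled to glucosamine, damages DNA by alkylating its bases, and the study asked which signaling it alters in these cells. The line is a single cultured line, and no source says whether the samples of a group were separate cultures, so p-values measure the spread between these samples, which may be technical.

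Cyclin-dependent kinases drive a cell through its division cycle, and these inhibitors hold them back. The CIP/KIP proteins p21 (Cdkn1a), p27 (Cdkn1b) and p57 (Cdkn1c) bind complexes of a cyclin with its kinase, chiefly those of Cdk2. The INK4 proteins p16 (Cdkn2a), p15 (Cdkn2b), p18 (Cdkn2c) and p19 (Cdkn2d) bind Cdk4 and Cdk6 and keep the D-type cyclins off them. Cdkn2a also encodes ARF, a protein in another reading frame that restrains Mdm2, and counts per gene do not separate it from p16. Cdkn1a is the best known target gene of p53, while p27 is regulated largely through its degradation.

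The promoter windows are shown because the member that rose, Cdkn1a, differed from the others in its match to the p53 consensus. RefSeq gave windows for 6 of the 7 genes in build GRCr8, each of 300 bases from 250 before to 50 after an annotated start. This build is not the one used for the counts, and a gene can have other starts. The 4 windows of the members that could be tested follow, 5′ to 3′ in the direction of the gene, with capitals marking the 20 bases closest to the p53 consensus (2 half-sites of 10 bases without a spacer). They lie at chr20:7150682-7150981 (plus strand) for Cdkn1a, chr4:169491254-169491553 (plus strand) for Cdkn1b, chr5:129644842-129645141 (minus strand) for Cdkn2c and chr8:28110760-28111059 (minus strand) for Cdkn2d.
Cdkn1a: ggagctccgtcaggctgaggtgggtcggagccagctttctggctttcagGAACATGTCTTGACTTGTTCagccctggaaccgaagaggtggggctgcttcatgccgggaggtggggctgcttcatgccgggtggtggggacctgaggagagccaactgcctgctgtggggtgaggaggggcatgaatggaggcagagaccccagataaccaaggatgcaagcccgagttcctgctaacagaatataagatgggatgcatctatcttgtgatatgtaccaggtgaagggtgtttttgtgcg
Cdkn1b: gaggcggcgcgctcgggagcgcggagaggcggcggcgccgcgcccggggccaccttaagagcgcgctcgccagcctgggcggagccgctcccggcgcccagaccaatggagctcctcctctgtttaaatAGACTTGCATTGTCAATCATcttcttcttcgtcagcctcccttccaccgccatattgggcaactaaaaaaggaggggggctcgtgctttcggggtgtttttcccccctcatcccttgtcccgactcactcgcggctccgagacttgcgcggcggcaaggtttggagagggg
Cdkn2c: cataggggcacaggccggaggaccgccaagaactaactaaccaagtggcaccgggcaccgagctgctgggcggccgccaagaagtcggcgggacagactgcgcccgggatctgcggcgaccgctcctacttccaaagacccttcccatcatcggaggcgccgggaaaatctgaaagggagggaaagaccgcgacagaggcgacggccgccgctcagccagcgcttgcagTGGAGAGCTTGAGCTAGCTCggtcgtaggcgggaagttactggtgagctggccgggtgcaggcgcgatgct
Cdkn2d: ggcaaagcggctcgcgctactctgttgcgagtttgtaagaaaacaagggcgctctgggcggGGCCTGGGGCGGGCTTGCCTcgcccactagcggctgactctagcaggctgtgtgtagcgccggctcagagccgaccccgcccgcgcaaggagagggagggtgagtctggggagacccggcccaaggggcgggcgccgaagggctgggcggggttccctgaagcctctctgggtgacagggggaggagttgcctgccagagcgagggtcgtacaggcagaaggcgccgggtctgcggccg

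The Cdkn1a window held a stretch with 1 mismatch to the consensus, from 201 to 182 bases before the annotated start of that window. Which start these cells use was not examined. Of 33465 windows scanned across the rat genome, 24 held a match with at most 1 mismatch, or 0.0717%. The fewest mismatches were 3 in the window of Cdkn2c, 4 in that of Cdkn2d and 5 in those of Cdkn1b, Cdkn2a and Cdkn2b. At most 3 mismatches were found in 6.19% of all windows, at most 4 in 29.7% and at most 5 in 76.2%. The 24 windows belonged to 21 genes, of which 5 could be tested in these cells. Among these, Cdkn1a, Ccng1 (cyclin G1) and Gtse1 (a microtubule-associated regulator of p53) were higher in STZ, and Cibar2 and Rnps1 were lower, all at an adjusted p-value under 0.05 by edgeR's quasi-likelihood test. By the same rule 25.9% of all genes tested were higher and 25.1% lower, and Cdkn1a, whose rise was the reason for showing the windows, is 1 of the 3 higher genes. A match of letters is a description and does not show that p53 bound there. The Cdkn1a window also reaches into an annotated long non-coding RNA that ends upstream of the gene.

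**Figure D1:**
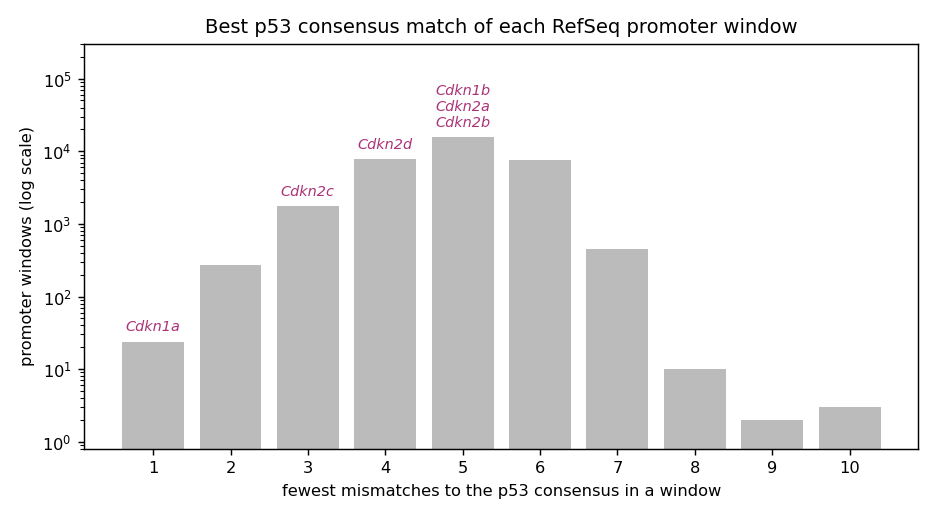
Number of RefSeq promoter windows (vertical axis, log scale) by their fewest mismatches to the p53 consensus (horizontal axis), with the members named above the bar they fall in. Cdkn1a is in the bar of 24 windows with 1 mismatch, and the other 5 members with a window are at 3 to 5 mismatches.

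The windows also differed in composition. GC content was 56.7% in the window of Cdkn1a, 64.7% in Cdkn1b, 65.3% in Cdkn2c and 69.7% in Cdkn2d, with a median of 51.7% over all windows. The GC box GGGCGG, counted on both strands, was absent from the Cdkn1a window and present 1 time in Cdkn1b and in Cdkn2c and 5 times in Cdkn2d, whereas 33.1% of all windows held it. CCAAT, on both strands, occurred 2 times in the Cdkn1b window and in none of the other 3, against 37.5% of all windows. TATAAA, on both strands, was in none of the 4 windows and in 14.2% of all. Each of these genes had 1 window, so the counts do not describe promoters at other starts of the gene.

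Total counts were between 10430924 and 15191349 per sample. Counts were expressed as CPM (counts scaled to a common library size) on library sizes scaled by TMM, with factors between 0.988 and 1.02, and 11870 genes passed edgeR's filter on low counts. No library was a copy of another, since chi-square divided by its degrees of freedom was 1.85 or more for every pair within a group. The labelled cell type was checked by its markers. Krt8, an epithelial keratin, was at 1102 to 1178 CPM in Control and 1597 to 1613 CPM in STZ. It alone was high among the 5 kidney epithelium markers with a row. Cdh1 (E-cadherin) was at 1.07 to 3.02 CPM, and Krt18, Cdh16 and Pax8 were at no more than 0.218, 0.291 and 0.348 CPM. Epcam and Pax2 had no row under those symbols. Of 6 proximal tubule markers all were listed, but only Aqp1 passed the filter, and their summed level was 9.90 to 16.5 CPM in Control and 5.74 to 6.83 CPM in STZ. These low levels do not show the proximal tubule identity that the study gives the line. Of 6 fibroblast markers 5 were listed, with a summed level of 99.6 to 111 CPM in Control and 56.1 to 66.7 CPM in STZ, while 4 endothelial and 4 immune markers summed to at most 1.13 and 2.40 CPM. The part of these shifts in the values of the inhibitors was not tested. The study counted fewer viable NRK-52E cells at 24 h as the STZ dose rose. The part of this loss in the values of the inhibitors was not tested either. In RNA of whole cultures, fewer cells that carry a transcript cannot be told apart from less of it per cell.

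Among the 7 inhibitors, 1 rose and 3 fell in STZ-treated cells. Cdkn1a rose 5.60-fold, whereas Cdkn1b fell by 16.8%, Cdkn2c fell by 16.9% and Cdkn2d fell by 27.9%. Cdkn1c and Cdkn2a had too few reads to be tested. A gene was called by edgeR's quasi-likelihood test at an adjusted p-value under 0.05 over all 11870 genes. At this threshold 50.9% of all genes tested were called, 25.9% higher and 25.1% lower, so the members' calls, 1 higher and 3 lower of 4 tested, are read here beside the size of each change. When an absolute log2 fold change over 1 was also required, Cdkn1a alone of the 4 remained, among 2.26% of all genes that were higher by that rule. All STZ samples lay above all Control samples for 1 of the 4 members and below them for the other 3. Such separation was common, with 28.6% of all genes tested apart with STZ above, 27.7% apart with STZ below and 56.3% in either direction. The median log2 fold change was -0.27 over the 4 members tested and -0.01 over all genes tested.

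Cdkn1a encodes p21, which stops cyclin-kinase complexes after DNA damage and also binds PCNA. It had 231, 228 and 236 CPM in Control replicates 1, 2 and 3 and 1271, 1310 and 1312 CPM in STZ replicates 1, 2 and 3. The lowest STZ sample was thus far above the highest Control sample, and samples within a group lay close together, with a coefficient of variation of 1.81% in Control and 1.77% in STZ. Means were 232 ± 4.19 CPM (SD, n = 3) in Control and 1298 ± 23.0 CPM (SD, n = 3) in STZ. Its log2 fold change came to 2.49 (standard error 0.04; by edgeR's quasi-likelihood test, adjusted p = 1.05e-39), and the 95% interval of the fold was 5.32 to 5.89. Its p-value was the smallest of all genes tested, and its log2 fold change was the 22nd largest. The reads behind these values, 2447 to 3029 in a Control sample and 15075 to 19670 in an STZ sample, made up 0.0230% to 0.0238% of a Control library and 0.126% to 0.129% of an STZ library.

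**Figure D2:**
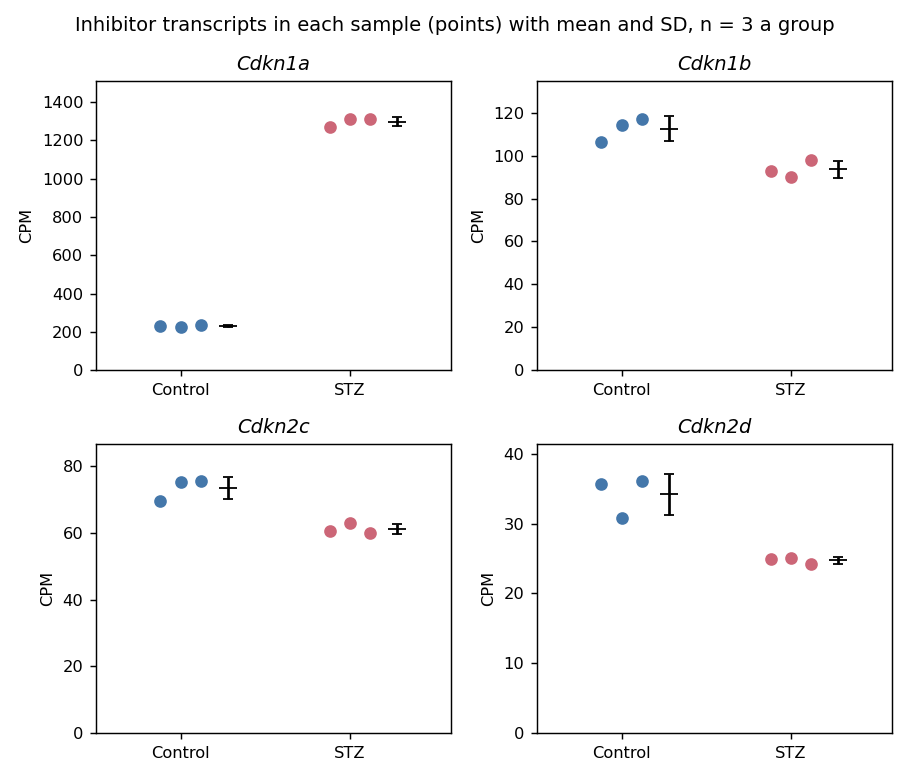
Levels in CPM (vertical axes, from 0) of the 4 tested inhibitors in each Control and STZ sample (points), with the group mean and SD beside them (n = 3 a group). Cdkn1a lies near 232 CPM in Control and 1298 CPM in STZ, and the other 3 genes lie lower in every STZ sample than in any Control sample, as do 27.7% of all genes tested.

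Cdkn1b encodes p27, which holds cyclin E and Cdk2 inactive in resting cells. Its levels were 106, 114 and 117 CPM in Control replicates 1, 2 and 3 and 92.8, 90.3 and 97.8 CPM in STZ replicates 1, 2 and 3. The groups did not overlap, as for 56.3% of all genes tested, and the gap between Control replicate 1 and STZ replicate 3 was smaller than the range within Control. Means were 113 ± 5.69 CPM in Control and 93.6 ± 3.85 CPM in STZ (SD, n = 3). Its log2 fold change came to -0.27 (standard error 0.05, adjusted p = 1.09e-05 by the same edgeR test), and 18.3% of all genes tested had a lower one.

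Cdkn2c encodes p18, an inhibitor of Cdk4 and Cdk6. It had 69.6, 75.4 and 75.5 CPM in the Control samples and 60.7, 63.0 and 60.0 CPM in the STZ samples, in the order of the replicates. Each STZ sample was below each Control sample, as for 27.7% of all genes tested. Means were 73.5 ± 3.38 CPM in Control and 61.2 ± 1.57 CPM in STZ (SD, n = 3), and its log2 fold change came to -0.27 (standard error 0.05, adjusted p = 4.72e-05 by the same edgeR test).

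Cdkn2d encodes p19, the other INK4 protein with enough reads for a test. It had 35.7, 30.7 and 36.0 CPM in the Control samples and 24.9, 25.0 and 24.2 CPM in the STZ samples, again in the order of the replicates. The STZ samples lay within 1 CPM of each other, below a Control group in which replicate 2 was the lowest. Means were 34.2 ± 2.97 CPM in Control and 24.7 ± 0.477 CPM in STZ (SD, n = 3). Its log2 fold change came to -0.47 (standard error 0.07, adjusted p = 1.12e-06 by the same edgeR test), and 7.31% of all genes tested had a lower one. These values rested on 288 to 462 reads per sample, and the lowest of these counts had a 95% Poisson interval of 256 to 323 reads, which covers counting error only.

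Cdkn1c, which encodes p57, and Cdkn2a, which encodes p16 and ARF, were close to absent from the reads. Cdkn1c had 0 reads in each Control sample and 0, 0 and 3 reads in STZ replicates 1, 2 and 3. Cdkn2a had 0 reads in each Control sample and 1, 0 and 2 reads in the STZ samples. Both genes thus had a row only through STZ reads, since every row of the count table had a read. A count of 0 over the 34070847 reads of the Control group allows up to 3 reads, or 0.0881 CPM. In the STZ group each gene had 3 reads over 40771015, and Cdkn1c was at 0.200 CPM in STZ replicate 3. Both genes were thus at the floor in Control and close to it in STZ, so no fold change is given. Tested without a filter on low counts, neither passed (adjusted p = 0.302 for each by edgeR's quasi-likelihood test over 18930 genes). At this depth no difference between the groups was detectable for either gene. Mtap, the nearest protein-coding gene to Cdkn2a on the side away from Cdkn2b in the RefSeq gene table and named here after its values were seen, had 72.8 ± 1.12 CPM in Control and 83.5 ± 2.27 CPM in STZ (SD, n = 3). No annotated gene overlapped any of the 7 members in that table.

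**Figure D3:**
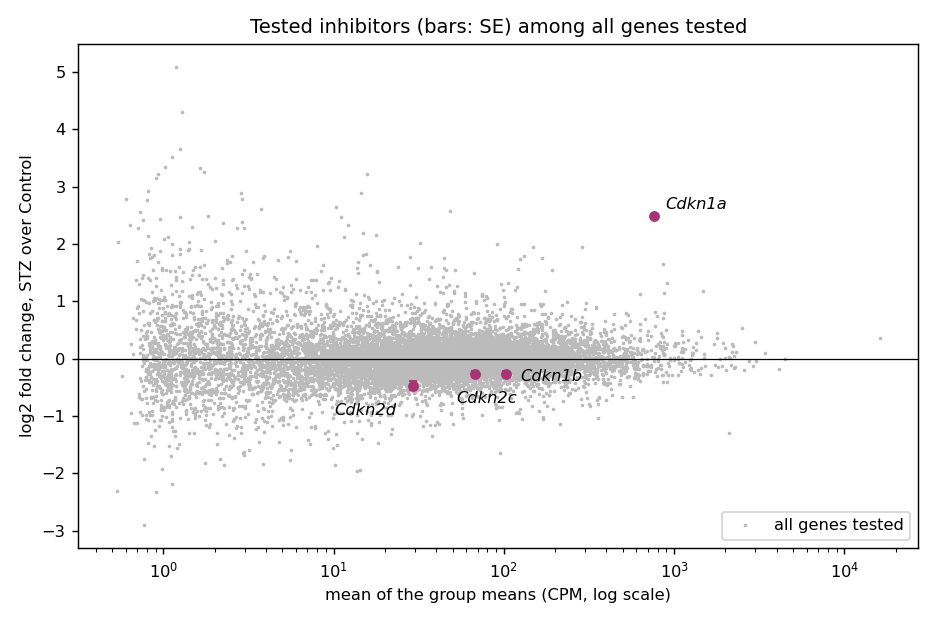
Log2 fold change of STZ over Control (vertical axis) against the mean level in CPM (horizontal axis, log scale) for all 11870 genes tested (grey) and the 4 tested inhibitors (purple, bars are standard errors). Cdkn1a stands at 2.49, above the other genes of its level, while Cdkn1b and Cdkn2c at -0.27 and Cdkn2d at -0.47 lie within the spread of the other genes.

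Members were also compared within each library, where scaling cancels. For each read of Cdkn1b there were 2.17, 1.99 and 2.02 reads of Cdkn1a in the Control samples and 13.7, 14.5 and 13.4 in the STZ samples. The ratio of Cdkn1a to Cdkn2c went from 3.16 ± 0.148 to 21.2 ± 0.588, and that of Cdkn1a to Cdkn2d from 6.81 ± 0.528 to 52.6 ± 1.68 (means ± SD, n = 3). Each of these 3 ratios was higher in all STZ samples than in all Control samples (two-sided exact permutation p = 0.1, the smallest that 3 samples against 3 can give, and 0.2 adjusted over 6 pairs). All 3 share the reads of Cdkn1a and restate its rise over genes that fell, so they are not separate results.

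The 3 members that fell differed less from each other. The ratio of Cdkn2c to Cdkn1b reads was 0.655, 0.659 and 0.644 in Control and 0.654, 0.698 and 0.613 in STZ, so the groups overlapped (exact permutation p = 1). The ratio of Cdkn2d to Cdkn1b was 0.304 ± 0.0339 in Control and 0.264 ± 0.0156 in STZ (SD, n = 3, exact permutation p = 0.3, 0.36 adjusted). That of Cdkn2d to Cdkn2c was 0.466 ± 0.0538 in Control and 0.404 ± 0.00681 in STZ (SD, n = 3, exact permutation p = 0.2, 0.3 adjusted). The larger fall of Cdkn2d was therefore not distinguished from that of the other 2 genes, in a design whose smallest p is 0.1.

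As a share of the reads of the 6 listed members, Cdkn1a made up 52.2%, 50.8% and 50.8% in the Control samples and 87.7%, 88.0% and 87.8% in the STZ samples. The share of Cdkn1b went from 24.9% ± 0.784 to 6.34% ± 0.245, that of Cdkn2c from 16.3% ± 0.539 to 4.14% ± 0.116 and that of Cdkn2d from 7.56% ± 0.634 to 1.67% ± 0.0525 (means ± SD, n = 3). Cdkn1a is part of this total, so its rise alone lowers the other shares, which do not measure how far those genes fell. These are shares of reads, in which long transcripts weigh more, and not of molecules. The summed level of the tested members was 452 ± 11.7 CPM in Control and 1477 ± 24.2 CPM in STZ (SD, n = 3), and without Cdkn1a it was 220 ± 8.59 and 180 ± 2.09 CPM.

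**Figure D4:**
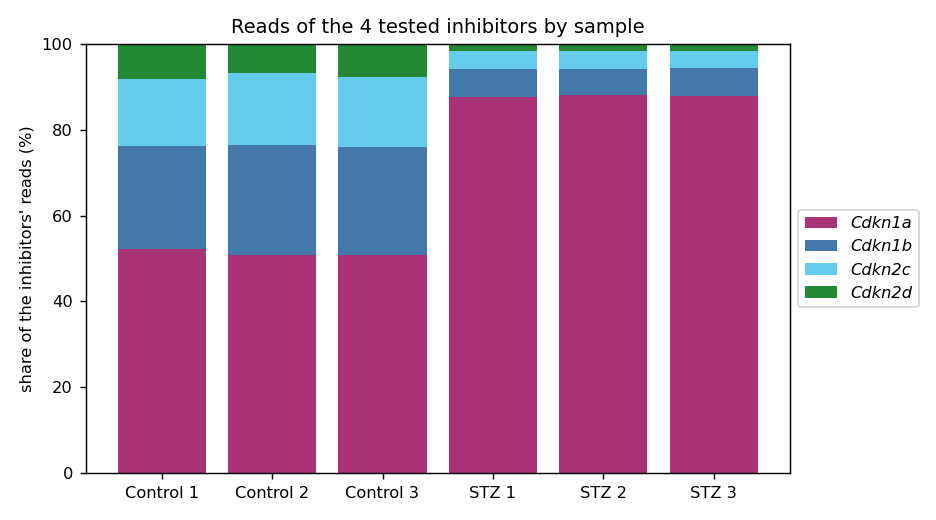
Share of the inhibitors' reads (vertical axis, %) held by each of the 4 tested members in each sample (stacked bars). Cdkn1a holds 50.8% to 52.2% in the Control samples and 87.7% to 88.0% in the STZ samples.

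Only Cdkn1a passed both thresholds, and the genes with the most similar profile over the 6 samples were sought for it. Likeness was the root-mean-square difference between log2 CPM profiles, each centred on its Control mean, over 9896 other named genes with a mean of at least 50 normalized counts. The nearest were Cd80 (a co-stimulatory ligand of T cells, difference 0.10), Des (desmin, a muscle intermediate filament, 0.11), Fam167a (0.24), Tnfsf18 (a ligand of the TNF superfamily, 0.24) and Mmp2 (a gelatinase, 0.26). Their log2 fold changes were 2.58, 2.65, 2.17, 2.20 and 2.33, a similarity that follows from the way likeness was measured. Their mean levels were 13.9, 2.82, 6.40, 5.28 and 4.06 CPM in Control and 83.1, 17.8, 28.9, 24.3 and 20.3 CPM in STZ. The mean count was taken over all 6 samples, so a gene with few Control reads could be included through its STZ reads.

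Of the 4 kinases that the inhibitors bind, 0 were higher and 2 were lower at an adjusted p-value under 0.05. Over all genes tested 25.9% were higher and 25.1% lower, the background for this list and for those that follow. Cdk2, the kinase of the G1/S transition, had 74.4, 70.2 and 74.5 CPM in the Control samples and 56.3, 59.4 and 57.6 CPM in the STZ samples, a log2 fold change of -0.34. Cdk4, the partner of D-type cyclins, had a log2 fold change of -0.13. Neither Cdk1, the mitotic kinase, at -0.05, nor Cdk6 at -0.04 passed the test (adjusted p = 0.296 and 0.667 by edgeR's quasi-likelihood test).

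The cyclin partners moved both ways, with 2 of 7 higher and 4 lower. Ccnd2, a D-type cyclin, rose from 243 ± 10.1 CPM in Control to 454 ± 2.66 CPM in STZ (SD, n = 3), a log2 fold change of 0.90, and Ccnd3 rose with a log2 fold change of 0.20. Ccnd1 was at 0.04 and did not pass (adjusted p = 0.421 by the same edgeR test). The A-type, E-type and B-type partners fell, with log2 fold changes of -0.52 for Ccna2, -0.46 for Ccne2, -0.23 for Ccne1 and -0.22 for Ccnb1.

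Downstream of the kinases, 1 of 7 tested pocket protein and E2F genes was higher and 2 were lower. E2f1 had no row under that symbol and was not analysed here. Rb1, the retinoblastoma protein, rose with a log2 fold change of 0.43, and its relative Rbl1 (p107) fell with a log2 fold change of -0.53. Of the direct partners, Pcna, the replication clamp bound by p21, fell from 278 ± 11.1 CPM in Control to 167 ± 4.40 CPM in STZ (SD, n = 3), a log2 fold change of -0.73. Mdm2, the ligase of p53 that ARF restrains, rose from 118 ± 4.77 CPM to 458 ± 6.30 CPM (SD, n = 3), a log2 fold change of 1.95, and was the only gene of the lists past both thresholds.

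Parts of the ubiquitin ligases that degrade p21 or p27 were higher for 2 of 10 genes and lower for 4. Dtl, which directs p21 to degradation on PCNA, rose with a log2 fold change of 0.22. Cdc20, an activator of the anaphase-promoting complex, fell with a log2 fold change of -0.49. Skp2, the adaptor that targets p27 and named here after its values were seen, had 42.9, 48.8 and 45.6 CPM in Control and 28.6, 29.2 and 30.4 CPM in STZ, a log2 fold change of -0.64 (adjusted p = 1.03e-10 by the same edgeR test). The 4 genes of this list that did not pass were Cks1b, Skp1, Cul1 and Ddb1, at -0.10, 0.05, -0.07 and 0.07. These genes are also named after their values were seen.

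Among transcription factors known to act on these genes, 4 of 11 were higher and 5 lower. Klf4, a factor that acts with p53 on Cdkn1a, had 9.24, 9.09 and 11.2 CPM in Control and 18.3, 18.5 and 18.4 CPM in STZ, a log2 fold change of 0.89, and Sp1, which binds GC boxes, had one of -0.30. Polycomb silencing can keep the INK4 locus shut. Of 12 genes of this silencing and its antagonist, 0 were higher and 6 were lower, against 25.9% and 25.1% of all genes tested. Cbx2, a chromobox subunit, had the largest fall of all the lists, with 29.1, 26.8 and 30.2 CPM in Control and 17.3, 18.8 and 13.6 CPM in STZ, a log2 fold change of -0.81. Cdkn2a was close to the floor of detection in the same samples, and whether Polycomb acts on the locus in this line was not tested. Of 3 other brakes on the kinases, Pkmyt1 was higher at 0.20 and Wee1 lower at -0.34, and Cdkn3 at -0.07 did not pass (adjusted p = 0.332 by the same edgeR test).

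Over the 8 lists, 11 of 56 genes tested were higher (19.6%) and 25 were lower (44.6%), with a median log2 fold change of -0.09. The shares over all genes, 25.9% and 25.1%, are the background for these counts, and no test of the lists was made.

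**Figure D5:**
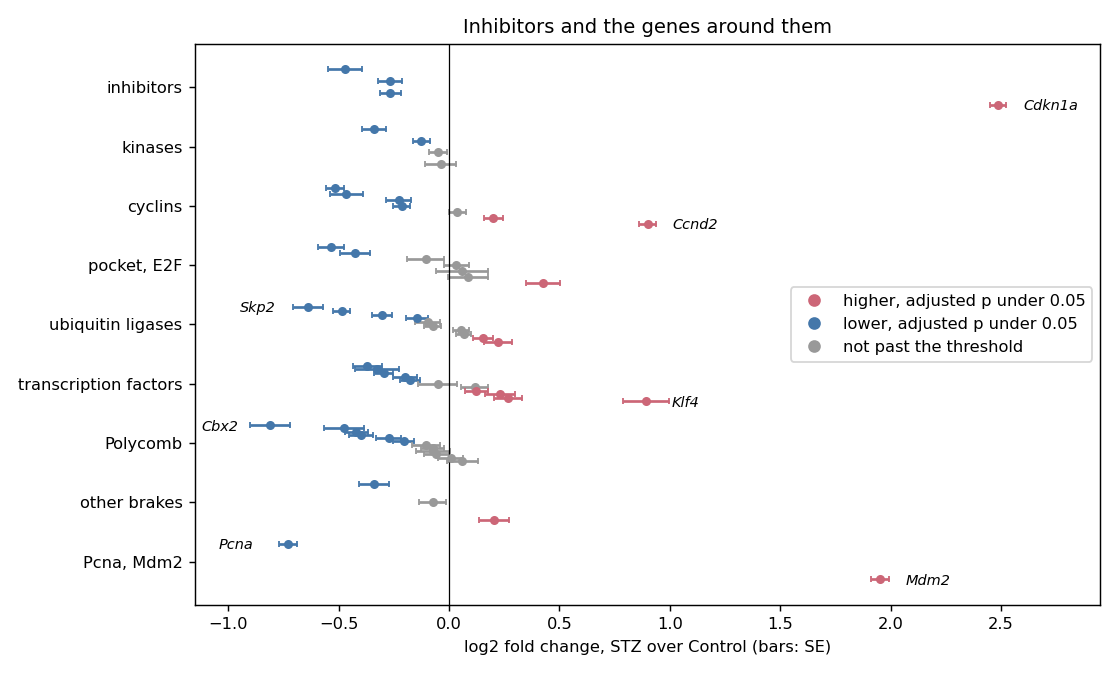
Log2 fold change of STZ over Control (horizontal axis, bars are standard errors) for the tested inhibitors and the 56 tested genes of the 8 lists (rows), colored by the result of edgeR's quasi-likelihood test at an adjusted p-value under 0.05. Cdkn1a at 2.49 and Mdm2 at 1.95 stand to the right, and Cbx2 at -0.81, Pcna at -0.73 and Skp2 at -0.64 to the left.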

How the data were processed

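RNA of NRK-52E cells (3 Control and 3 STZ samples) was sequenced from a stranded mRNA library. The authors mapped the reads to Rnor6 with STAR 2.7.10a and deposited raw counts of uniquely mapped reads per gene from featureCounts. The strand setting and the annotation are not given in the sources used here. Columns were matched to samples by title, and 0 columns were left over. Scaling (TMM), the filter (filterByExpr) and the quasi-likelihood test were run in edgeR 4.0.16 on all genes, with Benjamini-Hochberg adjustment. Standard errors are the absolute log2 fold change over the square root of F. The steps were tested on simulated counts whose changes were larger than the falls of Cdkn1b, Cdkn2c and Cdkn2d. Changes of that smaller size were not covered. Ratios between members were compared by exact permutation over samples.

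The 7 members and the 8 lists of genes around them were chosen with earlier results of these data known. Genes named are the members, all kinases and cyclins of the lists, in every other list the rise and the fall of smallest p, and the 5 nearest profiles of a member past both thresholds. Genes outside this rule are marked, apart from the markers and the genes found by the promoter scan. Alternatives were 2 other filters, 3 other scalings, DESeq2 1.42.0, limma-voom (limma 3.58.1), glmTreat, the threshold on fold change, a block for the replicate number and fits without 1 of the samples. Transcript lengths were not used here, so ratios and shares between members are of reads, which weigh long transcripts more, and serve to compare groups and not genes.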

Additional observations from a re-analysis of the deposited data

How the results depend on the processing

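All 4 tested inhibitors kept their direction and an adjusted p-value under 0.05 in 56 of 56 refits over 14 alternatives (3 scalings, 2 filters, DESeq2, limma-voom, the replicate block and 6 fits without 1 sample). Log2 fold changes were 2.45 to 2.50 for Cdkn1a, -0.31 to -0.24 for Cdkn1b, -0.30 to -0.25 for Cdkn2c and -0.54 to -0.43 for Cdkn2d. The number of members called, 4, was 1 with an absolute log2 fold change over 1 and 1 with glmTreat, since only Cdkn1a passes a threshold on the fold. The number of pathway genes called, 36, was 35 to 37 over the other settings and 34 to 36 with 1 sample left out.

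Same-numbered samples of the 2 groups had deviations that correlated at 0.0475, -0.0398 and 0.0746 over 11870 genes, which gives no sign of pairing. In the fit with the replicate block, 4 members and 36 pathway genes were called. Depth limits Cdkn1c and Cdkn2a, which had at most 3 reads in any sample.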
